A study of Homo sapiens with 17 samples.

Results

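Mitochondrial ribosomal protein (MRP) mRNAs are the nuclear-encoded messages for the protein subunits of the mitochondrial ribosome. They were taken as every protein-coding gene of the deposited editing table whose symbol is MRPL or MRPS, followed by a number and at most 1 letter. This gave 78 of the 18869 genes listed, 49 named for the large subunit (MRPL) and 29 for the small subunit (MRPS). The table listed 13473 protein-coding genes in all.

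Ribo-STAMP was performed in HEK293T cells, an established human embryonic kidney line. In stable lentiviral RPS2-STAMP lines the C-to-U deaminase APOBEC1 was fused to RPS2, a protein of the small subunit of the cytosolic ribosome, whereas Control-STAMP lines expressed APOBEC1 alone. Expression in every line was induced with doxycycline at 50 ng/ml for 24 h, and cells were crosslinked with 0.1% formaldehyde. RNA was then sequenced from the Input and after immunoprecipitation of the poly(A) binding proteins PABPN (PABPN IP), mainly nuclear, and PABPC (PABPC IP), mainly cytoplasmic, with 3 RPS2-STAMP samples for each fraction and 3, 3 and 2 Control-STAMP samples for the Input, PABPN IP and PABPC IP. The study describes the lysate as cytoplasmic, which the sample labels do not state. The fused enzyme is overexpressed beside the cell's own RPS2, so that editing reports contact with tagged ribosomes only. Markers of the line gave a mixed picture. VIM was at 184 TPM and KRT18 at 24.8 TPM (Input), KRT8 was at 2.16 TPM, and the blood, liver, pancreas and heart markers PTPRC, ALB, INS, HBB and MYH6 were not among the genes of the table.

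Mitochondrial ribosomes make the few respiratory chain subunits that the mitochondrial genome encodes. Their ribosomal RNAs are transcribed inside the organelle, but all of their proteins are translated by cytosolic ribosomes and imported, so that MRP mRNAs meet nuclear and cytoplasmic poly(A) binding proteins as other mRNAs do. Some MRPs descend from bacterial ribosomal proteins, and others were added during the evolution of mitochondria.

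Editing was given as normalized EPKM, the edits scaled by transcript length and by mapped reads, from which the authors had subtracted editing in Control-STAMP, so that 0 is read here as no editing above the control. Transcript level was given as average TPM, a length-scaled share of the reads. The table has 1 value per gene and fraction, pooled by the authors, so no value below carries an SD or an n, no test was possible, and no difference between fractions has a replicate check. It holds no read counts, so the depth behind each value is unknown. Comparisons were limited to genes with 5 TPM or more in each IP. Of the 78 members, 77 passed, 49 of 49 MRPL and 28 of 29 MRPS genes. MRPS17, which encodes a conserved small subunit protein, had no TPM. The same filter was passed by 9607 protein-coding genes, which served as the background.

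The editing of MRP mRNAs was first compared with that of all protein-coding genes. Their median EPKM was 0.0606 (Input), 0.0604 (PABPC IP) and 0.0221 (PABPN IP), whereas that of all protein-coding genes was 0.0273, 0.0501 and 0.0334. The members were thus above the background median in the Input and PABPC IP and below it in the PABPN IP. The quartiles of the members were 0.00689 and 0.108 (Input), 0.00969 and 0.140 (PABPC IP), and 0 and 0.0742 (PABPN IP). Editing was above 0 for 59 of 77 members in the Input (76.6%, against 78.1% of protein-coding genes), for 62 with PABPC (80.5%, against 82.6%) and for 43 with PABPN (55.8%, against 72.9%). The Input and PABPC IP shares were near the background, and the PABPN IP share was lower. In all, 30 members were above 0 in all 3 fractions (39.0%, against 50.5% of protein-coding genes), 30 in 2 fractions (39.0%, against 34.7%), 14 in 1 fraction (18.2%, against 12.7%) and 3 in none (3.90%, against 2.07%). Of the 14, 3 were above 0 only in the Input, 5 only with PABPC and 6 only with PABPN, where 389, 523 and 311 of the 9607 protein-coding genes were.

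Members were more abundant than most genes, so the same values were taken for genes of like level or length. These groups were chosen after the data were seen and are given as a description. Among genes with an Input TPM between the members' quartiles of 23.0 and 74.5, the median EPKM of 39 members was 0.0559 (Input), 0.0830 (PABPC IP) and 0.0179 (PABPN IP). That of 2573 protein-coding genes in this range was 0.0639, 0.0873 and 0.0497. At like Input TPM, the members were therefore close to other genes in the Input and PABPC IP and lower in the PABPN IP. There 56.4% of members and 76.7% of protein-coding genes were above 0. Level in the PABPN IP was not matched. Over all 77 members the median TPM in the PABPN IP was 1.53-fold that of the Input, against 2.20-fold for protein-coding genes. Among genes with a canonical transcript between the members' quartiles of 953 and 1749 bases, 48.7% of 39 members and 65.5% of 1326 protein-coding genes were above 0 with PABPN.

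The genes with the highest mean editing over the fractions came from both subunits. MRPL53, a large subunit protein found only in mitochondria, had an EPKM of 0.412 (Input), 0.244 (PABPC IP) and 0.167 (PABPN IP). MRPS16, a conserved small subunit protein, had 0.173, 0.222 and 0.189 in the same order. Both were above 0 in every fraction, MRPS16 at nearly equal values. MRPL37, a mitochondria-specific large subunit protein, fell from 0.377 (Input) to 0.145 and 0.0442 in the PABPC and PABPN IPs. MRPL41, likewise mitochondria-specific, had 0.386 (Input), 0.258 (PABPC IP) and 0 (PABPN IP). The remaining gene, MRPL14, owed its place to the PABPC IP alone. At the other end, 3 members were listed at 0 in all 3 fractions. MRPL22, a conserved protein that lines the exit tunnel, was among the least abundant members with 11.1 TPM (Input). MRPS28, a small subunit protein, had 20.3 TPM. MRPS26, a mitochondria-specific small subunit protein, had 187 TPM (Input), 490 (PABPC IP) and 250 (PABPN IP), so that an editing value of 0 was not limited to scarce transcripts. MRPL12, the stalk protein and the most abundant member at 512 TPM (Input), had an EPKM of 0.113 (Input), 0.0224 (PABPC IP) and 0 (PABPN IP).

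**Figure D1:**
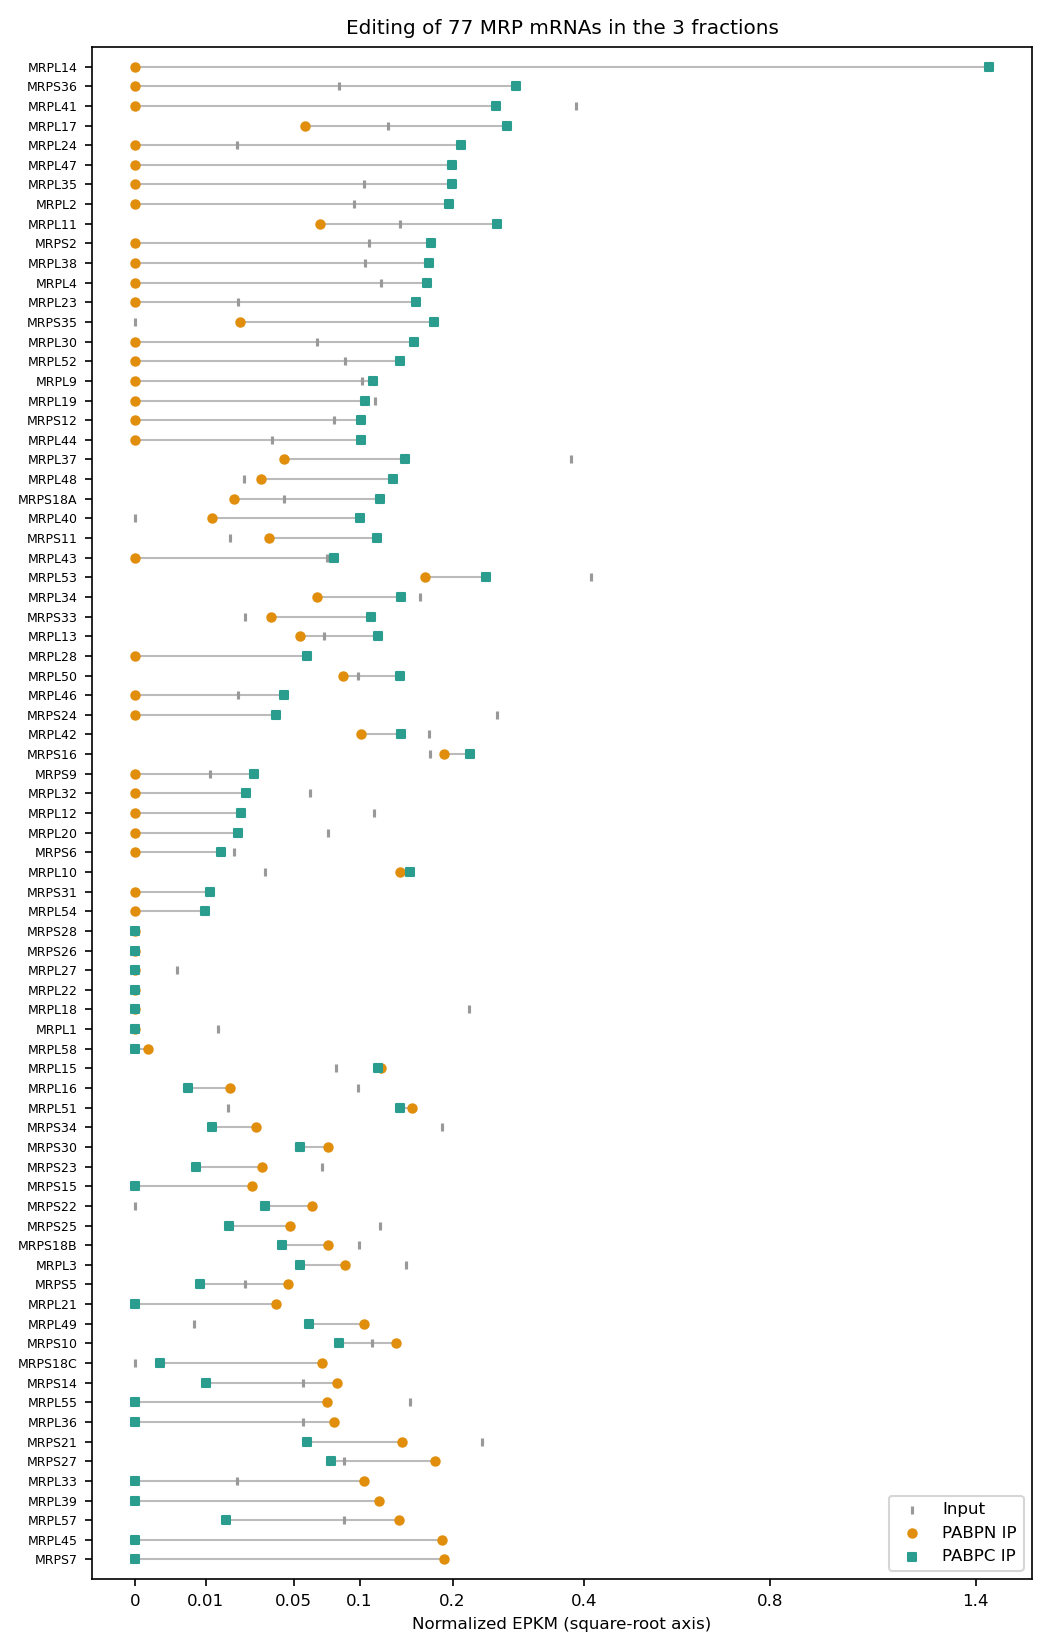
Normalized EPKM of the 77 MRP mRNAs that passed the TPM filter, on a square-root axis, sorted by the difference between the PABPC IP (green squares) and the PABPN IP (orange circles); grey ticks are the Input. Many members sit at 0 with PABPN, and MRPL14 lies apart from the rest at 1.45 (PABPC IP).

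The IPs were then compared in editing. EPKM is not scaled by the level of the transcript, so its differences do not give ribosome contact per mRNA. Over protein-coding genes, Spearman rho of EPKM with Input TPM was 0.53 (Input), 0.45 (PABPC IP) and 0.26 (PABPN IP). Over members it was 0.44, 0.22 and 0.14. How far transcript level enters the differences below was not tested. EPKM was higher in the PABPC IP for 44 of 77 members (57.1%, against 56.4% of protein-coding genes), higher in the PABPN IP for 27 (35.1%, against 37.4%) and equal for 6. By direction alone the members were thus like the background. On the log2(EPKM + 0.01) scale, 36 members were 2-fold or more higher with PABPC (46.8%, against 36.3%) and 16 were 2-fold or more higher with PABPN (20.8%, against 21.1%). This scale understates the change of genes with low values, and with members at 0 in an IP the fold depends on the pseudocount. Among the 34 members above 0 in both IPs, 9 were 2-fold or more higher with PABPC (26.5%, against 27.7% of such protein-coding genes). The median difference, PABPC IP minus PABPN IP, was 0.0224 EPKM for members and 0.0108 for protein-coding genes. Over the 34 members above 0 in both IPs it was -0.00745 EPKM and over 5914 such protein-coding genes 0.0112, but this selection uses the values compared and cannot say what the difference rested on. Without genes covered to 50% or more by others it was 0.00485 EPKM for members and 0.0108 for protein-coding genes. The members thus exceeded the background in this median when all 77 were kept and fell below it under both selections. With a pseudocount of 0.1 EPKM, 20 members were 2-fold or more higher with PABPC and 5 with PABPN, as were 865 and 356 of the 9607 protein-coding genes.

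The 6 members that were most above their PABPN IP value in the PABPC IP included 5 of the large subunit. MRPL14, a conserved protein of the face that meets the small subunit, was listed at 0 in the Input and PABPN IP and had 1.45 with PABPC. No other member exceeded 0.3 in that IP. Its transcript level, with 132 TPM (Input), 406 (PABPC IP) and 195 (PABPN IP), was above the upper quartile of the members, which was 74.5, 197 and 123, and below the level of MRPL12. MRPS36 had 0.0822 (Input), 0.288 (PABPC IP) and 0 (PABPN IP). Despite its symbol, its protein is now placed in the 2-oxoglutarate dehydrogenase complex and not in the ribosome. MRPL17, a conserved protein near the exit tunnel, had 0.127 (Input), 0.274 (PABPC IP) and 0.0575 (PABPN IP). MRPL24, which encodes a conserved tunnel protein, had 0.0208, 0.211 and 0 in the same order. MRPL47, a protein at the tunnel exit, was at 0.200 (PABPC IP) and at 0 in the other fractions. With MRPL41, given above, 5 of these 6 genes were listed at 0 (PABPN IP), so that no fold can be given for them.

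The 6 members that were most above their PABPC IP value in the PABPN IP had smaller differences. MRPS7, a conserved protein of the small subunit head, had 0.190 (PABPN IP) and 0 in both other fractions. MRPL45, which anchors the ribosome at the inner membrane, had 0.187 (PABPN IP) and likewise 0 elsewhere, as did the mitochondria-specific MRPL39 with 0.118. All 3 were thus edited above the control in a single fraction. MRPL57, mitochondria-specific, had 0.0865 (Input), 0.0164 (PABPC IP) and 0.138 (PABPN IP). MRPL33, a small conserved protein, had 0.0207, 0 and 0.104 in that order. MRPS27, a pentatricopeptide repeat protein of the small subunit, had 0.0868, 0.0762 and 0.179, and had the highest PABPC IP value of the 6.

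Against the Input, the IPs gave different pictures; both comparisons share the Input values. EPKM of the PABPC IP exceeded that of the Input for 39 of 77 members (50.6%, against 57.3% of protein-coding genes) and was below it for 29 (37.7%, against 37.4%). At least 2-fold differences were found upward for 20 members (26.0%, against 35.1%) and downward for 19 (24.7%, against 19.5%), and the median difference was 0.00128 EPKM, against 0.0104 for protein-coding genes. The PABPN IP was above the Input for 26 members (33.8%, against 45.2%) and below it for 43 (55.8%, against 47.3%). At least 2-fold differences were upward for 13 members (16.9%, against 28.4%) and downward for 32 (41.6%, against 29.6%), with a median difference of -0.0168 EPKM, against 0 for protein-coding genes. Without members covered to 50% or more by other genes, the median differences were 0 (PABPC IP minus Input) and -0.00734 EPKM (PABPN IP minus Input), against 0.0112 and 0 for protein-coding genes. The share of members at least 2-fold lower in the PABPN IP than in the Input was then near that of protein-coding genes, as given below. Single members thus moved in either direction between the Input and the PABPC IP. In the PABPN IP, with all 77 members kept, more lay below the Input than in the background. This held for MRPL mRNAs, with 31 of 49 below (63.3%), and not for MRPS mRNAs, with 12 of 28 (42.9%, against 47.3%).

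The transcript level of the members differed between the IPs more uniformly than their editing. Their median TPM was 47.5 (Input), 125 (PABPC IP) and 70.3 (PABPN IP), and that of protein-coding genes was 15.8, 28.9 and 38.4. Summed over members, TPM was 5346 (Input), 13765 (PABPC IP) and 7846 (PABPN IP), which was 0.626%, 1.38% and 0.804% of all TPM listed. MRPL12 alone held 9.58%, 11.5% and 10.6% of the members' sums. Which samples entered each average TPM, and whether Control-STAMP samples did, is not stated in the sources used here.

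For each gene the log2 ratio of TPM between the IPs was taken, and the median over protein-coding genes, -0.19, was subtracted. Genes more than 0.5 above or below this centre were counted. The centred ratio of PABPC IP to PABPN IP was above 0.5 for 63 of 77 members (81.8%, against 30.4% of protein-coding genes) and below -0.5 for 2 (2.60%, against 31.5%). The members' median was 0.88, with quartiles of 0.57 and 1.19. Without the centring, 54 members were above 0.5 and 4 below -0.5, and 69 of 77 had more TPM in the PABPC IP than in the PABPN IP, with a median of 1.61-fold. Of the 9607 protein-coding genes, 2213 were then above 0.5 and 3616 below -0.5, and 4078 had more TPM with PABPC, with a median of 0.874-fold.

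**Figure D2:**
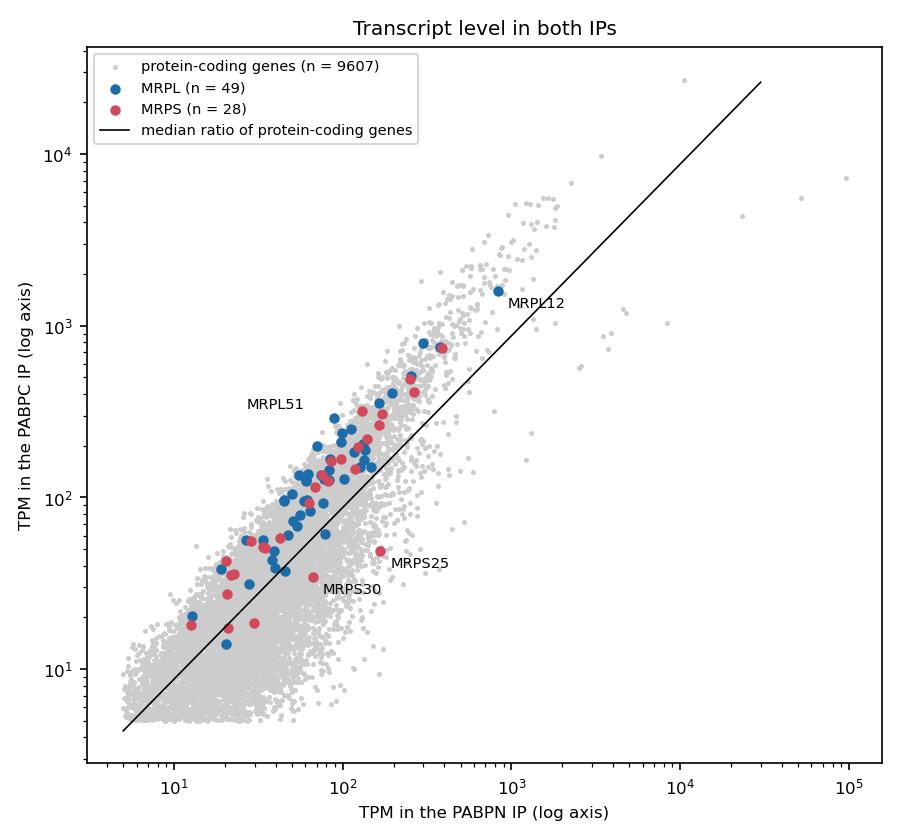
Average TPM in the PABPN IP against the PABPC IP, on log axes, for 9607 protein-coding genes (grey) and the MRPL (blue) and MRPS (red) genes among them; the line marks the median ratio of protein-coding genes. Most members lie on the PABPC IP side of the line, and MRPS25 and MRPS30 lie furthest on its PABPN IP side.

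MRPL51, a mitochondria-specific protein at the tunnel exit, had the highest ratio, with 108 TPM (Input), 291 (PABPC IP) and 88.9 (PABPN IP). It was 3.28-fold higher with PABPC than with PABPN, whereas its EPKM was 0.0171 (Input), 0.139 (PABPC IP) and 0.152 (PABPN IP). MRPL54, also mitochondria-specific, had 58.2, 199 and 70.3 TPM in the order Input, PABPC IP, PABPN IP, a 2.82-fold difference between the IPs. MRPL41 had 260, 797 and 300 TPM (2.65-fold), MRPS24, a conserved small subunit protein, 107, 320 and 130 TPM (2.46-fold), and MRPL23, a conserved protein at the tunnel exit, 42.5, 135 and 55.0 TPM (2.45-fold). In these genes TPM in the PABPN IP was close to that of the Input, at 0.825-fold for MRPL51 and 1.30-fold for MRPL23. EPKM was higher with PABPC in 4 of these 5 genes, all but MRPL51, against 57.1% of all 77 members and 56.4% of protein-coding genes. The 4 were listed at 0 with PABPN, as were 34 of the 77 members and 2605 of 9607 protein-coding genes. MRPL54 had an EPKM of 0.00969 (PABPC IP) and 0 in the other fractions, MRPS24 had 0.260 (Input), 0.0393 (PABPC IP) and 0 (PABPN IP), and MRPL23 had 0.0211, 0.156 and 0.

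The 5 members with the lowest ratio had more TPM in the PABPN IP. MRPS25, a mitochondria-specific small subunit protein, had 28.6 TPM (Input), 48.6 (PABPC IP) and 167 (PABPN IP), where it was 3.43-fold higher than in the PABPC IP. MRPS30, which despite its name belongs to the large subunit, had 28.4, 34.4 and 66.3 TPM and was 1.93-fold higher in the PABPN IP. These were the 2 members below -0.5, at -1.58 and -0.75 from the centre. MRPS5, a conserved small subunit protein, had 11.2, 18.5 and 29.7 TPM (1.61-fold). MRPL46, a mitochondria-specific large subunit protein, had 9.85, 14.0 and 20.2 TPM (1.44-fold), and MRPL19, a conserved large subunit protein, had 39.7, 61.5 and 78.1 TPM (1.27-fold). The EPKM of MRPS25 was 0.119 (Input), 0.0175 (PABPC IP) and 0.0478 (PABPN IP). MRPS25 was overlapped over all of its length by other genes, among them NR2C2, and over 30.1% on its own strand. MRPS5, MRPL46 and MRPL19 were overlapped over 99.9%, 99.7% and 88.9% of their lengths, and MRPS30 over none. The authors removed overlapping regions before counting, and what this left of these genes was not tested.

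Against the Input, ratios were centred on 0.99 for the PABPC IP and 1.14 for the PABPN IP, so that TPM of the median protein-coding gene was 1.98-fold and 2.20-fold that of the Input. From these centres the PABPC IP was above 0.5 for 15 of 77 members (19.5%, against 8.37%) and below -0.5 for 2 (2.60%, against 18.1%), with a median of 0.27. The PABPN IP was above 0.5 for 1 member, MRPS25 (1.30%, against 24.5%), and below -0.5 for 41 (53.2%, against 21.6%), with a median of -0.53. The members were thus over-represented in the PABPC IP and, to a larger extent, under-represented in the PABPN IP relative to the median gene, and without centring the median in the PABPN IP had the other sign, at 0.61, still below the 1.14 of protein-coding genes. Without centring, 75 members were above 0.5 and none below -0.5 with PABPC (7813 and 85 protein-coding genes), and 43 were above and none below with PABPN (8125 and 56). All 77 members had more TPM with PABPC than in the Input, and 73 had more in the PABPN IP, as did 9162 and 9289 of the 9607 protein-coding genes, so that these counts do not set the members apart. The 3 comparisons share fractions and are not independent.

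**Figure D3:**
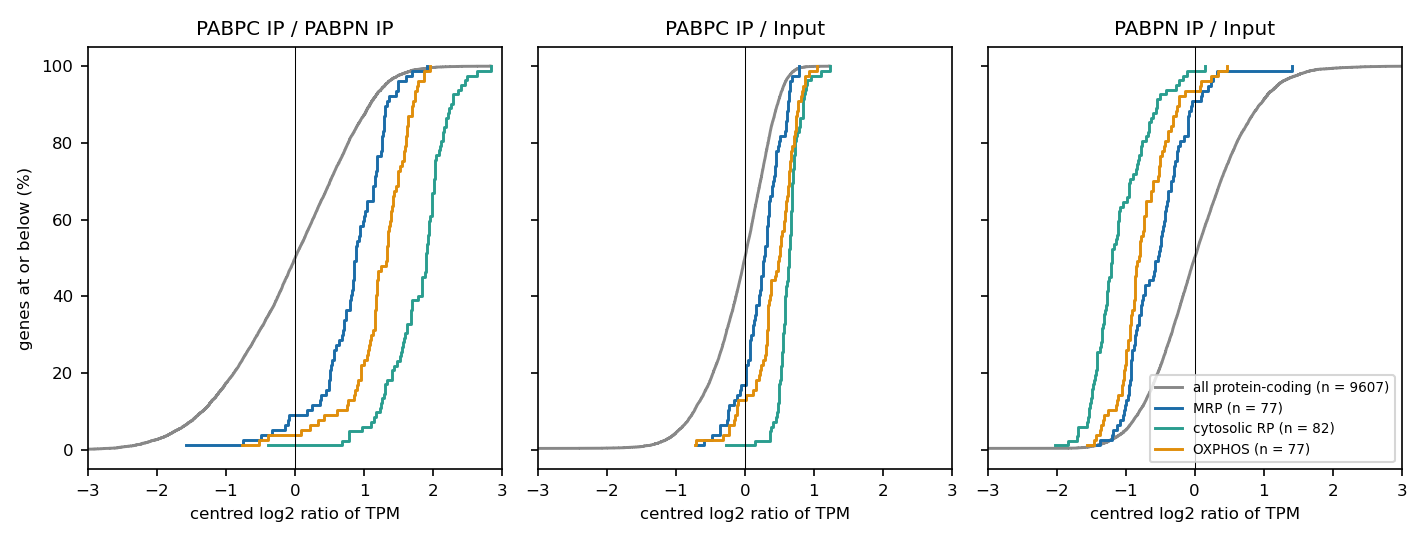
Cumulative share of genes (%) by centred log2 TPM ratio for the 3 pairs of fractions, for all protein-coding genes (grey), MRP genes (blue), cytosolic ribosomal protein genes (green) and nuclear-encoded subunits of oxidative phosphorylation (orange). The MRP line lies between the protein-coding genes, centred on 0, and both other groups in each panel at its median, at 0.88, 0.27 and -0.53; without centring the last is 0.61, and that of protein-coding genes 1.14.

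Other genes for ribosomes and respiration lay further in the same direction. The 82 cytosolic ribosomal protein genes that passed the filter, paralogues included, had a median centred ratio of PABPC IP to PABPN IP of 1.90, and 98.8% were above 0.5. The 77 nuclear-encoded subunits of oxidative phosphorylation had a median of 1.33, and 90.9% were above 0.5. Their EPKM also exceeded that of MRP mRNAs, with medians of 0.438, 0.425 and 0.144 (Input, PABPC IP, PABPN IP) for cytosolic ribosomal protein genes and 0.165, 0.104 and 0.0643 for the respiratory subunits. These groups were not matched for transcript level, by which EPKM is not scaled. The respiratory subunits had median TPM of 74.6, 213 and 93.7 in the same order, against 47.5, 125 and 70.3 for MRP mRNAs. The genes with the highest mean editing were RPL12, of the cytosolic large subunit, with 2.24, 1.95 and 1.01, and COX7C, of cytochrome c oxidase, with 0.786, 0.442 and 0.211. The highest MRP value in the Input, 0.412 for MRPL53, was thus below the median of the cytosolic ribosomal protein genes.

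The MRPL and MRPS mRNAs were compared in editing and in partition. Median EPKM of the 49 MRPL and 28 MRPS mRNAs was 0.0706 and 0.0477 (Input), 0.105 and 0.0364 (PABPC IP), and 0 and 0.0339 (PABPN IP). EPKM was higher with PABPC than with PABPN for 32 MRPL mRNAs (65.3%) and 12 MRPS mRNAs (42.9%), and lower for 13 and 14, where the background was 56.4% and 37.4%. Listed at 0 with PABPN were 25 of 49 MRPL and 9 of 28 MRPS mRNAs, and 2605 of 9607 protein-coding genes. The subunits were not matched for length, and their canonical transcripts had medians of 1175 (MRPL) and 1436 bases (MRPS). The centred TPM ratio of PABPC IP to PABPN IP was above 0.5 for 40 of 49 MRPL and 23 of 28 MRPS mRNAs (81.6% and 82.1%, against 30.4%), with medians of 0.93 and 0.85. The difference of 0.078 between these medians was 0.22 by means, and that in EPKM with PABPN was -0.0339 by medians and -0.0115 by means. No MRPL mRNA was below -0.5. Symbols do not always give the subunit. Of the 3 paralogues of MRPS18, MRPS18A is a large subunit protein, and MRPS18B and MRPS18C belong to the small subunit. MRPS18A had an EPKM of 0.0442 (Input), 0.119 (PABPC IP) and 0.0197 (PABPN IP), MRPS18B had 0.0994, 0.0431 and 0.0737, and MRPS18C had 0, 0.00128 and 0.0695. The large subunit paralogue was higher in the PABPC IP, and both small subunit paralogues were higher in the PABPN IP. MRPS30 had 0.0513, 0.0542 and 0.0742. With MRPS30 and MRPS18A counted in the large subunit and MRPS36 left out, the difference in median Input EPKM between the subunits was 0.0414 in place of 0.0228.

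Members were also compared by descent from bacterial proteins. The 47 conserved members that passed had median EPKM of 0.0657, 0.0585 and 0 (Input, PABPC IP, PABPN IP), and the 30 mitochondria-specific members 0.0443, 0.0773 and 0.0318. MRPS36 was counted among the latter, and without it their medians were 0.0373, 0.0762 and 0.0320. The sign of the difference in the Input and with PABPC changed when means were used, which for the PABPC IP takes in the single value of MRPL14. The centred TPM ratio between the IPs was above 0.5 for 39 of 47 conserved members and for 24 of 30 mitochondria-specific members (83.0% and 80.0%, against 30.4%), with medians of 0.86 and 0.99, the latter 0.94 without MRPS36, and by means the order was reversed. Both members below -0.5, MRPS25 and MRPS30, were mitochondria-specific.

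The 5 proteins of the mitochondrial ribosome with other symbols were split. AURKAIP1, a small subunit protein, had 129 TPM (Input), 392 (PABPC IP) and 145 (PABPN IP), CHCHD1, also of the small subunit, 19.4, 61.4 and 33.7, and GADD45GIP1, of the large subunit, 48.7, 142 and 63.9. These 3 had centred ratios above 0.5, as most MRP mRNAs did. DAP3, a GTP-binding protein of the small subunit, was near the centre with 40.1, 80.8 and 92.9 TPM. PTCD3, a pentatricopeptide repeat protein at the mRNA entry of the small subunit, had 13.9, 15.5 and 48.2 TPM, and at -1.44 from the centre it resembled MRPS25. The EPKM of the 5 genes was between 0.0111 and 0.155 (Input), between 0 and 0.0727 (PABPC IP) and between 0 and 0.0805 (PABPN IP), and was higher with PABPC than with PABPN only for AURKAIP1.

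Genes for mitochondrial translation or for assembly of the mitochondrial ribosome did not share the partition of its subunits. Above 0.5 were 3 of 11 translation factors, 7 of 25 assembly factors and 2 of 16 mitochondrial aminoacyl-tRNA synthetases, and below -0.5 were 3, 10 and 4, where protein-coding genes gave 30.4% above and 31.5% below. Their median centred ratios were -0.21, -0.23 and 0.05. Median EPKM was 0.0182, 0.00297 and 0.0213 (Input) and 0.0378, 0.0399 and 0.0582 (PABPC IP). In the PABPN IP it was 0.0354, 0.0350 and 0.0348, above the 0.0221 of the MRP mRNAs. The most edited genes on average were TUFM, the elongation factor Tu, with 0.168 (Input), 0.150 (PABPC IP) and 0.0354 (PABPN IP); NGRN, needed for assembly of the large subunit, with 0.251, 0.0304 and 0.0351; and IARS2, the isoleucyl-tRNA synthetase, with 0.126, 0.141 and 0.107. These 3 lists had longer transcripts than the MRP genes, with medians of 2536, 2317 and 2620 bases.

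MRP mRNAs are short. Their canonical transcripts had a median of 1224 bases, 5 exons and 588 bases of coding sequence, whereas protein-coding genes that passed had 3269 bases, 9 exons and 1320 bases. The 3′ UTR had a median of 467 bases in members and 1352 in protein-coding genes. Over the 77 members, the ratio of PABPC IP to PABPN IP TPM fell with transcript length (Spearman rho = -0.36) and rose with Input TPM (rho = 0.52), and over 9605 protein-coding genes with a length the first was -0.58 and over all 9607 the second was 0.49. These relations are across genes of the same libraries, and genes are not independent replicates. With coding length, rho was -0.02 over members and -0.62 over 9601 protein-coding genes. For the ratios to the Input, rho with coding length was -0.65 (PABPC IP) and -0.32 (PABPN IP) over members. Over protein-coding genes it was -0.66 and 0.41. Among the shortest members, 26 genes of 496 to 999 bases, 23 were above 0.5, among the next 26 genes, of 1009 to 1553 bases, 24 were, and among the longest, 25 genes of 1605 to 15557 bases, 16 were. The medians of these groups were 1.01, 0.97 and 0.71, so that only the longest members stood apart. Among all protein-coding genes with a transcript between the members' quartiles of length, 63.7% were above 0.5 and 8.07% below -0.5, with a median of 0.75, against 89.7%, 2.56% and 1.02 for the 39 members in that range. Within the members' quartiles of Input TPM, 45.5% of protein-coding genes and 82.1% of 39 members were above 0.5. The background of genes of like length was thus much closer to the members than that of all genes. From shortest to longest, the length groups of members had median EPKM of 0.0211, 0.0574 and 0.0799 (Input) and 0.0228, 0.0587 and 0.105 (PABPC IP). With PABPN these medians were 0, 0 and 0.0682. The longest members were above the protein-coding median of 0.0334 with PABPN. The shortest were below the protein-coding medians of 0.0273 (Input) and 0.0501 (PABPC IP).

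**Figure D4:**
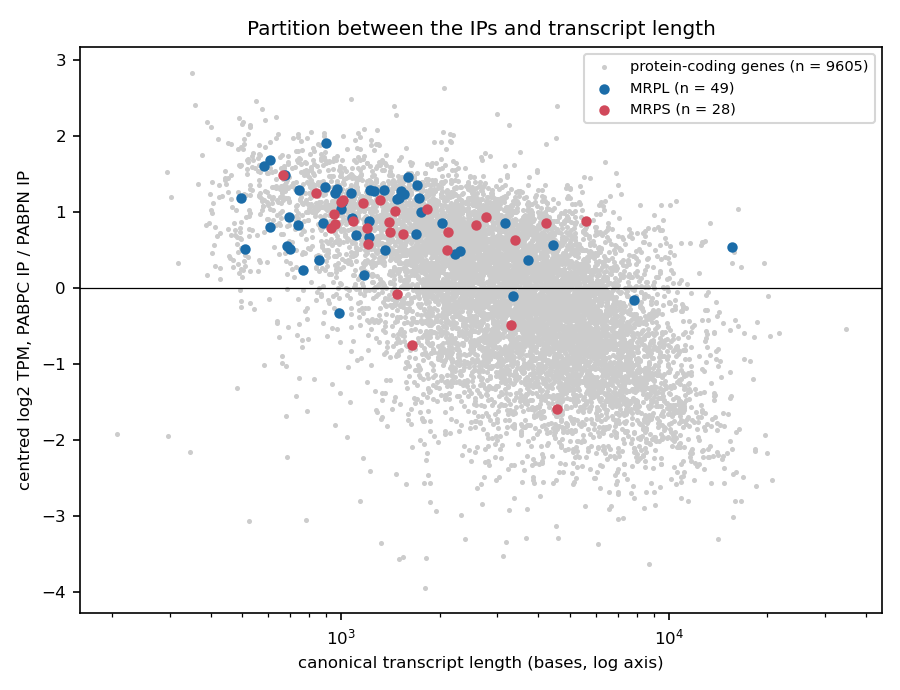
Centred log2 ratio of TPM between the PABPC IP and the PABPN IP against the length of the canonical transcript (bases, log axis) for 9605 protein-coding genes (grey) and MRPL (blue) and MRPS (red) genes. Short transcripts lie higher in both sets, and members of up to 999 bases have a median of 1.01.

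Because PABPs bind the poly(A) tail, the 3′ ends of the genes with the highest and lowest ratios were read from hg38. The poly(A) signal AATAAA was present on the transcript strand in the last 50 bases of the canonical transcript of 52 of 77 members (67.5%, against 66.6% of protein-coding genes), and AATAAA or ATTAAA in that of 62 (80.5%, against 82.0%). The windows below hold 30 bases of the 3′ UTR with the hexamer in capitals, shown because they span both ends of the range of partition.
MRPL54: gccctggaggccAATAAAgagctttctggg
MRPL41: catctcatttctATTAAAcgcctttgccag
MRPL23: tcccgacacctaAATAAAagtcttgctgca
MRPS24: catctgctattgAATAAAgaccttctatct
MRPS5: tgaactttaagcAATAAAagacaatgatcc
MRPS30: gcagaaatcccaAATAAAatgctaacatac
MRPS25: agtctatcaatcAATAAAtgttgaacattt
They lie at chr19:3767527-3767556 (plus strand), chr9:137552523-137552552 (plus), chr11:1956564-1956593 (plus), chr7:43866560-43866589 (minus), chr2:95085389-95085418 (minus), chr5:44815481-44815510 (plus) and chr3:15048520-15048549 (minus). The canonical hexamer was thus present in genes at both ends, and MRPL41 had the variant ATTAAA. MRPL14 and MRPL51 held neither hexamer in their last 50 bases. A match describes the letters only.

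Cytosolic ribosomal protein mRNAs are known for a 5′ terminal oligopyrimidine tract, a C at the first base followed by pyrimidines, through which their translation is controlled. Transcription starts were taken from RefSeq on GRCh38.p14, where 68 of the 77 members matched by symbol. A start with C and 4 pyrimidines after it was found in 5 members (7.35%), in 43 of 66 cytosolic ribosomal protein genes (65.2%), in 461 of 7884 protein-coding genes (5.85%) and in 4.04% of all 27305 starts of the table. The first 20 transcribed bases are shown for members with and without the tract and for cytosolic ribosomal protein genes, with the first 5 bases in capitals.
MRPL53: CTTCCggggcggaggtcacc
MRPL45: CCTTTgcgggaacaagatgg
MRPS27: CCTTTtggtacgctccaaga
MRPL12: GTCATttccggctcgaatgc
MRPL41: GCTCTtgctgcgacgcagcg
RPL12: CCTCTcggctttcggctcgg
RPS24: CTCTTttcctccttggctgt
They lie at chr2:74472661-74472680 (minus strand), chr17:38297168-38297187 (plus), chr5:72320221-72320240 (minus), chr17:81703367-81703386 (plus), chr9:137551879-137551898 (plus), chr9:127451387-127451406 (minus) and chr10:78033863-78033882 (plus). In this letter pattern alone, MRP genes were thus closer to protein-coding genes in general than to cytosolic ribosomal protein genes. Their 5′ UTR was short, with a median of 30 bases against 134 in protein-coding genes and 42 in cytosolic ribosomal protein genes. MRPL53 with such a start had the highest EPKM of the members in the Input, while MRPL45 with such a start was at 0 there. The other 2 members with the pattern were MRPL44 and MRPS33, and all 5 were mitochondria-specific.

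Copies and overlapping genes make the values of some members less certain. In GENCODE release 44, 79 pseudogenes were named after 36 of the 78 members, 8 of them after MRPS21. How reads of such copies were treated was not tested. Of the 77 members compared, 23 were covered to 50% or more by other genes on either strand, 10 of them on the same strand. Without these 23, a comparison added after the data were seen, the median centred ratio of PABPC IP to PABPN IP was 0.93 in place of 0.88, with 45 of 54 members above 0.5 (83.3%, against 28.9% of protein-coding genes under the same selection). Editing moved more, as given above.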

How the data were processed

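The deposited normalized EPKM is an editing signal. The authors depleted ribosomal RNA, mapped reads with STAR to hg38, identified C-to-U conversions, scaled them for transcript length and depth, and subtracted editing of Control-STAMP; how negative differences were treated is not given in the sources used here. The authors' average TPM sums exonic and intronic TPM from featureCounts 2.0.2 and GENCODE release 34, with overlapping regions and readthrough genes removed. Medians, counts, EPKM differences, log2(EPKM + 0.01) ratios and log2 TPM ratios without pseudocount, centred on protein-coding genes, were computed from these values. Named genes were the 6 largest rises and 6 largest falls in EPKM between the IPs, the 5 highest mean EPKM, the 5 highest and 5 lowest TPM ratios, members at 0 throughout, genes fixed by name, the most edited gene of each other list, and MRPL12, chosen after the data were seen. Alternatives changed the TPM filter, pseudocounts, centring, fold and members. Transcript features came from GENCODE release 44 on hg38. Members and lists were chosen with earlier results of these data known. Scripts ran under Python 3.11.15 with matplotlib 3.10.9, SciPy 1.17.1, pandas 2.3.3 and NumPy 2.4.6, and were tested on simulated data.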

Additional observations from a re-analysis of the deposited data

Results flagged for a closer look

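MRPS17 had an EPKM of 0.0300 in the Input and was listed at 0 in both IPs. It was singled out because the table gives no TPM for it, so that it entered none of the comparisons, while its editing was above that of the control. The gene was overlapped over its whole length by other genes on the same strand, among them NIPSNAP2, and 4 pseudogenes were named after it. Their part in this value was not tested.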

How the results depend on the processing

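No paired analysis was possible because each gene has a single pooled value per fraction, and leaving out a replicate or fitting a replicate block was not run for the same reason. Of 185 alternatives over 34 results, 126 kept the value within 1.5-fold and in the same direction, 53 moved it further and 6 reversed it. The alternative without overlapped members, and that without the member with the highest EPKM for the subunits, and that without MRPS36 for descent were chosen after the data were seen. Over members above 0 only, median EPKM was 0.107 (PABPC IP) and 0.0734 (PABPN IP), and by means over members it was 0.103 and 0.0459. Over members above 0 in both fractions compared, the median difference PABPC IP minus PABPN IP was -0.00745 EPKM, with 9 members 2-fold or more up and 8 down (26.5% and 23.5%, against 27.7% and 17.5% of protein-coding genes). The PABPC IP minus Input difference was then 0.0169, with 13 members up (24.5%, against 30.2%), and the PABPN IP minus Input difference was -0.0125, with 4 up and 7 down (12.1% and 21.2%, against 26.5% and 22.8%). Under this selection, which uses the values compared, protein-coding genes had medians of 0.0112, 0.0138 and 0.00347. By means the differences were 0.0569 (PABPC IP minus PABPN IP), 0.0252 (PABPC IP minus Input) and -0.0317 (PABPN IP minus Input). Over protein-coding genes these means were 0.0199, 0.00852 and -0.0114. Both member means that use the PABPC IP take in the single value of MRPL14, 1.45. The small PABPC IP minus Input median was 0.000638 without the TPM filter, without the most edited member or without MRPS36, and 0 with a filter at 20 TPM. With a pseudocount of 0.1 EPKM, 20 members rose and 5 fell 2-fold or more for PABPC IP against PABPN IP (865 and 356 of 9607 protein-coding genes), 8 and 5 for PABPC IP against Input (597 and 409), and 4 and 12 for PABPN IP against Input (415 and 683).

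Without centring, TPM ratios put 4 members below -0.5 for PABPC IP against PABPN IP; 75 above and 0 below for PABPC IP against Input, median 1.26; and 43 above and 0 below for PABPN IP against Input, median 0.61. With TPM rescaled to equal sums and no centring, these were 4 (3735 protein-coding genes); 72 and 0, median 1.04 (6664 and 166, median 0.77); and 32 and 0, median 0.42 (7271 and 104). Of the 6 reversals, 2 were the medians of PABPN IP against Input, 0.61 and 0.42. The protein-coding medians were likewise positive, at 1.14 and 0.95, and the members' medians stayed below them. The shift was that of the median gene, as 318 of 9607 protein-coding genes had less TPM in the PABPN IP than in the Input. At a threshold of 1, 31 members were above and 1 below for PABPC IP against PABPN IP (40.3% and 1.30%, against 12.7% and 17.4% of protein-coding genes), 0 above and 0 below for PABPC IP against Input (5 and 425 protein-coding genes), and 9 below for PABPN IP against Input (11.7%, against 5.15%). Without overlapped members, the EPKM differences were 0.00485 (PABPC IP minus PABPN IP), 0 (PABPC IP minus Input) and -0.00734 (PABPN IP minus Input), against 0.0108, 0.0112 and 0 over 8019 protein-coding genes. Then 22 of 54 members were 2-fold or more higher with PABPC than with PABPN (40.7%, against 36.3%), and 17 were 2-fold or more lower with PABPN than in the Input (31.5%, against 29.2%). For TPM, 1 member was then below -0.5 for PABPC IP against PABPN IP, 9 were above 0.5 for PABPC IP against Input and 0 for PABPN IP against Input (1.85%, 16.7% and 0%, against 32.5%, 7.15% and 24.6%); part of these smaller counts follows from the fewer members. With MRPS30 and MRPS18A in the large subunit and MRPS36 left out, MRPL minus MRPS median Input EPKM was 0.0414. By means, MRPL minus MRPS was -0.0115 EPKM (PABPN IP) and 0.22 for the log2 partition. By means, conserved minus mitochondria-specific reversed to -0.0106 EPKM (Input), 0.0207 EPKM (PABPC IP) and 0.055 for the log2 partition, and was -0.0134 EPKM (PABPN IP). Without MRPS36 the log2 partition difference was -0.082.

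The values are pooled, depth is unknown, and the comparisons share fractions, so that they are not independent. A ratio of TPM is relative to all other transcripts, and an IP can also capture RNA that is not bound by its PABP. An EPKM of 0 can mean no ribosome contact, few reads, few editable cytidines, or editing equal to the control, and these cannot be told apart here. Short genes, pseudogene copies and overlapping genes make values less certain. The cause of any difference was not tested.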
